A study of Mus musculus with 88 samples.

Results

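Cluster 16 is 1 of the 22 clusters in which the study's authors placed single cells of mouse embryoid bodies (EBs), the aggregates that embryonic stem cells form when they are left to differentiate. Its members were taken from the deposited cluster assignment at resolution 2.5, and it held 134 of the 4949 kept cells. Of these, 123 came from libraries labelled Eed null and 11 from the other genotypes. The authors counted the cluster in their ectodermal class, together with clusters 1, 11 and 15, whereas cluster 13, the other differentiated cluster made mostly of Eed null cells, was in their mesodermal class.

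The study followed EBs of Eed null, Jarid2 null, Mtf2 null and wild-type (WT) lines, all first grown in serum with LIF, at days 0 (undifferentiated), 4, 7 and 10 after LIF was withdrawn, with 1 single-cell library for each genotype and day. Live cells were sorted 1 per well into 384-well plates and each RNA molecule was counted once through a unique molecular identifier (UMI). The labels give E14 as the strain of all 16 single-cell libraries, but the study's methods name J1 as the matched wild type of the Eed null line, so that genotype and line cannot be told apart in the single-cell data. Separate bulk RNA libraries covered the line labelled Eed null and its matched J1 wild type at days 0, 2, 4 and 7, with 1 sample per line and day.

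Eed is the subunit of Polycomb repressive complex 2 (PRC2) that binds trimethylated lysine 27 of histone H3 (H3K27me3) and keeps the complex active, and stem cells without it lose this mark. In stem cells PRC2 covers the promoters of many developmental regulators, including the 4 Hox gene clusters, whose genes are normally switched on in order along the body axis, with the high-numbered paralogue groups used in the trunk, tail and limbs. PRC2 also takes part in silencing some imprinted genes, which are expressed from 1 parental copy, and the Cdkn2a locus.

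Depth was similar inside and outside the cluster. The 134 cells held 1121557 UMIs, with a median of 6863 per cell (range 1403 to 50346), against a median of 6642 in the other 4815 cells. The median over cells was 7420 in cluster 1, 5860 in cluster 15 and 5103 in cluster 13. All 384 well numbers recurred in more than 1 library, since every plate uses the same set of well barcodes, so a cell is known by its plate and well together. Levels are given in CPM, a gene's UMIs summed over a group of cells and scaled so that all genes of the group add up to the same total, and levels are compared between groups for the same gene only. With 1 library per genotype and day there is no replicate, and a cluster was built from the genes of its own cells, so differences between groups of cells are described with no test. Intervals are 95% exact intervals (Poisson for UMIs, Clopper-Pearson for shares of cells) and cover counting error only.

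Cluster 16 was almost entirely a feature of the Eed null library at day 7. There, 112 of 319 kept cells were in it, or 35.1% (29.9 to 40.6). At day 10 the Eed null library gave 9 of 202 cells (4.46%, 2.06 to 8.29), and at day 4 it gave 2 of 320 (0.625%, 0.0758 to 2.24).

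The remaining libraries contributed few or no members. Jarid2 null EBs gave 1 of 302 cells at day 7 and 3 of 264 at day 10, Mtf2 null EBs gave 1 of 344 and 4 of 321, and WT EBs gave 1 of 316 and 1 of 214. No member came from day 0, where 337 to 347 cells per library allow a share of up to 1.06% to 1.09%, nor from day 4 of the other genotypes. Both day 4 members were among the deeper cells of their library: the first ranked 68 and the second, with 50346 UMIs, ranked 1 of 320. In the Eed null day 7 library the other large groups were cluster 10, with 126 cells, and cluster 13, with 32, while at day 10 cluster 13 held 165 of the 202 Eed null cells.

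**Figure D1:**
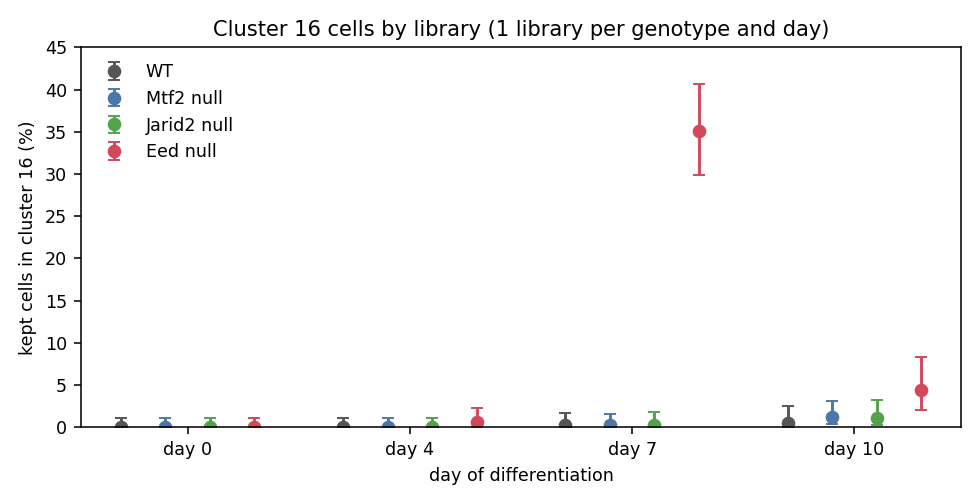
Share of kept cells assigned to cluster 16 in each of the 16 single-cell libraries (percent, linear axis), by day and genotype, with exact 95% binomial intervals. The Eed null library stands at 35.1% on day 7 and 4.46% on day 10, and every other library is at or below 1.25%.

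Eed itself followed the labels in the single-cell libraries. The Eed null libraries held 11.5, 1.33, 2.55 and 3.73 CPM of Eed at days 0, 4, 7 and 10, against 478, 197, 157 and 115 CPM in WT. Within cluster 16, 12 UMIs of Eed were counted, 11 of them in the 11 cells of other genotypes and 1 in the 123 Eed null cells.

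The neural marker lists did not place the cluster beside clusters 1 and 15 alike. Summed over 16 pan-neural progenitor genes, cluster 16 held 772 CPM (722 to 825), which ranked 14 of 22 clusters, whereas cluster 1 held 1248 and cluster 15 held 2118. Over 15 forebrain and eye field genes it held 314 CPM (282 to 348), against 486 in cluster 1 and 1589 in cluster 15, and ranked 7. Over 18 midbrain, hindbrain and spinal cord genes it ranked 5, with 234 CPM (206 to 264), above cluster 1 (103) and below cluster 15 (380) and cluster 13 (470). The forebrain regulators Fezf1 and Fezf2 were at 0 UMIs, and Lhx5 and Otx1 had 2 UMIs each.

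Single early neural genes were lower than in cluster 15. Sox1, an early neural plate factor, was detected in 18 of 134 cells (13.4%), and in 6.45% once every cell was thinned to 2500 UMIs, where undifferentiated WT cells, which should lack it, stood at 2.77% (median depths 6863 and 8447 UMIs). In cluster 15 the thinned share of Sox1 was 27.7%. Within the Eed null day 7 library, however, Sox1 stood at 39.9 CPM in cluster 16, against 4.26 in cluster 10 and 0 UMIs in cluster 13. Otx2 stood at 147 CPM, against 416 in cluster 1 and 464 in cluster 15.

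Epidermal keratins were also nearly absent from cluster 16: Krt5 had 0 UMIs and Krt14 had 2. General epithelial genes were present, however, and the sum over 15 surface ectoderm and epithelium genes, 1740 CPM (1664 to 1819), ranked 4 of 22. Cdh1 (E-cadherin) reached 634 CPM, Krt8, a keratin of simple epithelia, 258 CPM, and Cldn6, a tight junction protein of the early embryo, 207 CPM. The list sums for neural crest (495 CPM) and for mesenchyme and extracellular matrix (3039 CPM) ranked 4 and 7. No list set the cluster apart as 1 known cell type, and it is called by its number and leading genes here.

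**Figure D2:**
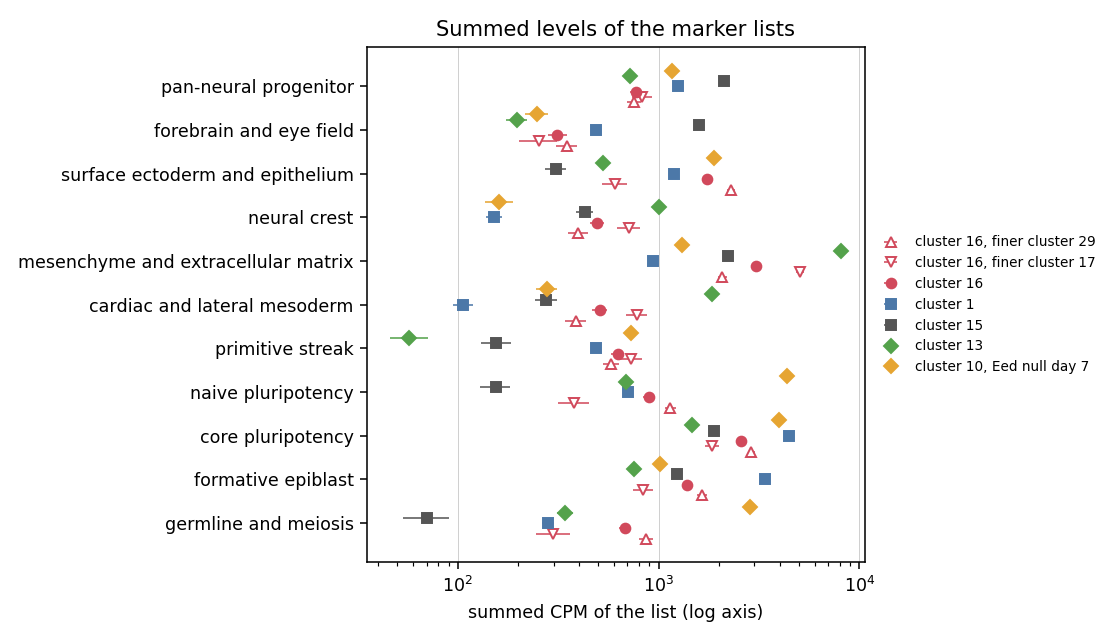
Summed levels of 11 marker lists in pooled cells (CPM, log axis, horizontal bars are 95% Poisson intervals), with cluster 16 as filled circles and its 2 finer groups as open triangles. Cluster 16 lies below clusters 1 and 15 for pan-neural genes (772 against 1248 and 2118 CPM) and above both for epithelial genes (1740 against 1189 and 307 CPM), and its 2 finer groups lie apart for epithelial, mesenchymal and naive genes.

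Against all other cells, the genes that led cluster 16 included posterior Hox genes and imprinted genes. A gene was counted as measured when it had at least 20 UMIs in cluster 16 or would have had 20 at the level of the other cells, and 8433 genes passed. Of these, 563 (6.68%) were at least 2-fold higher in cluster 16 and 390 (4.62%) at least 2-fold lower, with a median log2 ratio of 0.04.

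Hoxa9, a patterning factor of the posterior trunk (chromosome 6, 52223100 to 52231089, minus strand, GRCm38), had the largest ratio of the genes named. It had 81 UMIs in 32 cells, or 72.2 CPM (57.4 to 89.8) against 6.20 in the other cells, an 11.7-fold difference (8.94 to 15.1). Hoxc9 (chromosome 15, 102976439 to 102985099, plus strand) was at 63.3 CPM against 5.56, or 11.4-fold (8.58 to 15.0). Hoxa10, which lies next to Hoxa9 (chromosome 6, 52231197 to 52240854, minus strand), was at 67.8 CPM against 11.6, or 5.83-fold (4.51 to 7.46). The Eed null day 7 cells carried much of this: without them, the Hoxa10 level of the remaining 22 members was close to that of the other cells, with a log2 ratio of -0.09.

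H19, a maternally expressed imprinted RNA (chromosome 7, 142575529 to 142578143, minus strand), stood at 639 CPM against 73.8, or 8.66-fold (7.96 to 9.40). A single Eed null day 7 cell held 439 of its 717 UMIs. Without that cell the level was 253 CPM, 3.43-fold that of the other cells. H19 was nevertheless counted in 76 of 134 cells (56.7%, and 35.5% after thinning). An H19 UMI was counted in 0 of 340 undifferentiated WT cells, a count that allows up to 1.08% of cells to hold a UMI and does not bound cells that express it below detection. Magel2, a paternally expressed gene of the Prader-Willi region (chromosome 7, 62377010 to 62381640, plus strand), was at 74.0 CPM against 10.5, or 7.05-fold (5.50 to 8.95).

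Of genes outside these families, Cyp1b1, a cytochrome P450 enzyme, was 6.70-fold higher, Anxa3, an annexin, 6.13-fold, and Rgs2, an inhibitor of G protein signalling, 5.93-fold. Gata2, a transcription factor of blood, trophoblast and neural cells, stood at 139 CPM against 22.2, or 6.25-fold. For Gata2, 37 of 156 UMIs came from the day 4 cell with 50346 UMIs, and without it the ratio was 4.99. Of these leading genes, Hoxa9, Hoxc9, Magel2, Cyp1b1 and Anxa3 were at their highest level of all 22 clusters in cluster 16, and so was H19 only with the cell named above, since without it cluster 16 (253 CPM) was below cluster 13 (551 CPM). Cluster 13 came next for Hoxa9 (59.4 CPM), Hoxc9 (53.4) and Cyp1b1 (42.2).

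The genes with the largest ratios in the other direction were mostly globins. The endothelium and blood list, which includes globins, stood at 60285 CPM in cluster 18 and 4383 in cluster 19. Cluster 16 held 300 CPM of that list and ranked 8 of 22 clusters. Hbb-bh1, an embryonic beta-like globin, was at 6.24 CPM in cluster 16 against 474, and Hba-x, the embryonic alpha-like globin, at 15.2 against 743. Hba-a1 and Hba-a2 are near-identical copies, and their separate counts are uncertain. Nr0b1, a pluripotency-linked nuclear receptor, was at 7.13 CPM against 208, and Olig2, a neural tube factor, at 1.78 against 50.7. The side of several of these ratios changed with the cells on the other side. Against the other Eed null cells alone, the log2 ratio was above 0 for Hbb-bh1 (0.17), Hba-x (0.75) and Olig2 (2.89). Cluster 16 held only 7, 17 and 2 UMIs of these genes, under the minimum of 20. Its members also included 11 cells of other genotypes, so no higher level is read from these ratios.

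Hox genes as a family were widely detected in cluster 16. Of the 35 Hox genes in the count table, 34 had at least 1 UMI in its cells, with Hoxd3 at 0. Together they held 815 UMIs, or 727 CPM (678 to 778), and 114 of the 134 cells had at least 1 of them. All 4 genomic Hox clusters contributed, with 270 CPM from Hoxa, 120 from Hoxb, 202 from Hoxc and 135 from Hoxd.

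The sum was weighted towards the posterior end. Paralogue groups 1 to 4 held 128 CPM in cluster 16, groups 5 to 8 held 188, and groups 9 to 13 held 411 (374 to 450). In cluster 1 the 3 sums were 13.2, 3.04 and 8.44 CPM, and in cluster 15, which expressed anterior Hox genes, they were 121, 19.6 and 16.1 CPM. Cluster 13, mostly of day 10 cells, exceeded cluster 16 in all 3, with 218, 243 and 533 CPM. Among Eed null day 7 cells alone, groups 9 to 13 held 464 CPM in cluster 16 and 434 in cluster 13. Within cluster 16, Hoxd13, the most posterior gene of the Hoxd cluster (chromosome 2, 74668310 to 74671599, plus strand), reached 63.3 CPM (49.4 to 79.9) and Hoxc10 reached 32.1, while Hoxb13 had 2 UMIs.

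Counted by cell, 75.4% of cluster 16 (67.2 to 82.4) held at least 1 UMI of posterior Hox (groups 9 to 13), and 48.4% did so when thinned to 2500 UMIs, which left out 10 of its 134 cells. The thinned shares were 1.63% in cluster 1, 3.36% in cluster 15, 66.7% in cluster 13 and 0.923% in undifferentiated WT cells. Undifferentiated Eed null cells already held 159 CPM of posterior Hox (146 to 173), against 5.69 in undifferentiated WT cells.

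**Figure D3:**
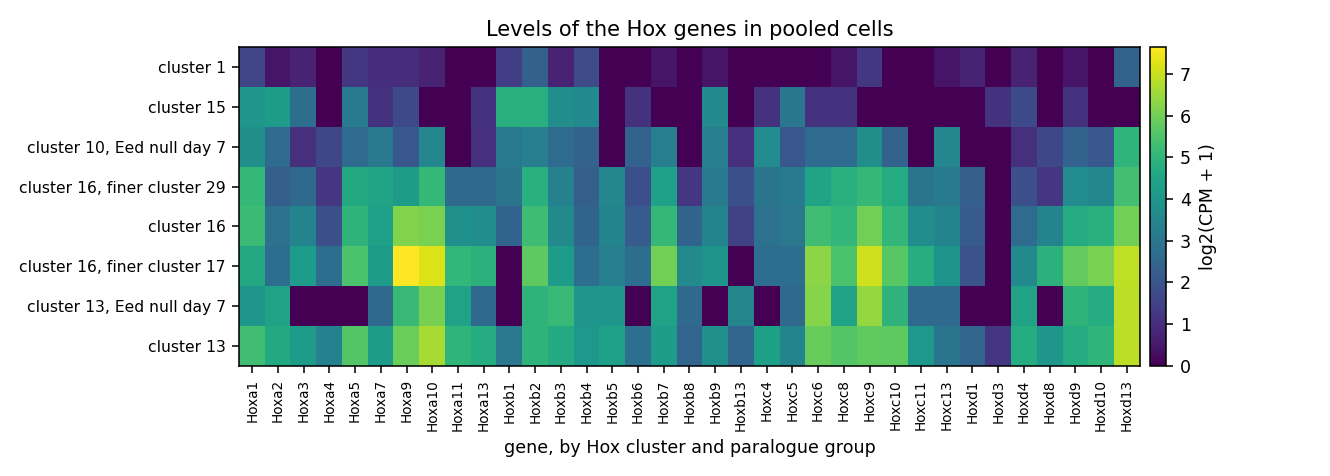
Levels of the 35 Hox genes, ordered by genomic cluster and paralogue group, in pooled cells of 8 groups, coloured by log2(CPM + 1). Clusters 1 and 15 are dark for groups 9 to 13, whereas cluster 16 and cluster 13 show signal in all 4 Hox clusters, with finer cluster 17 of cluster 16 brighter than finer cluster 29 (887 against 206 CPM summed over groups 9 to 13).

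Cluster 1, the largest ectodermal-class cluster, made up of 341 cells mainly of Mtf2 null and Jarid2 null EBs, differed from cluster 16 by a strong epiblast profile and by nearly absent Hox expression. Among 8373 measured genes, 810 (9.67%) were at least 2-fold higher in cluster 16 and 298 (3.56%) at least 2-fold lower. A gene scarce on one side passes the count minimum only through the side where it is high, so lists are compared here by their sums over every member in the table. The mesenchyme and matrix list stood at 3039 CPM against 943 in cluster 1, the imprinted list at 7186 against 2670, and the 35 Hox genes at 727 against 24.7.

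Several of the leading genes of this comparison are secreted regulators. Tgfb2, a TGF-beta ligand, was at 179 CPM against 4.05, or 44.2-fold (24.8 to 87.0). Igfbp5, which binds insulin-like growth factors, was at 623 against 19.9, or 31.3-fold (24.0 to 41.5), and Dkk1, a Wnt antagonist, at 158 against 5.07, or 31.2-fold (18.4 to 56.8). Anxa1, an annexin, had 87 UMIs against 2, a ratio of 115 (30.9 to 963), but 29 of those 87 UMIs came from 1 Eed null day 10 cell. H19 was 82.3-fold higher, and 32.6-fold without the cell named above.

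Lower than in cluster 1 were the neuroectoderm factors Zic2, at 21.4 CPM against 141 (6.61-fold, 4.38 to 10.4), and Zic5, at 55.3 against 318 (5.75-fold, 4.45 to 7.57). Olig1 was at 1.78 CPM against 60.1. Of 10 formative epiblast genes 4 were lower and 0 higher in cluster 16: Dnmt3b, a de novo DNA methyltransferase, was at 510 CPM against 1731, and Pou3f1 was at 109 against 487. Core pluripotency genes followed with 3 of 10 lower, whereas the naive list stood at 892 CPM against 704.

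Against cluster 15, the neuroectodermal cluster of 136 cells, cluster 16 was lower for pan-neural and forebrain genes and higher for epithelial, naive and germline transcripts. Of 8819 measured genes, 722 (8.19%) were at least 2-fold higher and 812 (9.21%) at least 2-fold lower, with a median of -0.04. Of 16 pan-neural genes 13 were lower and 0 higher (median -2.25), 4 of them reaching the count minimum in cluster 15 alone. Of the 12 forebrain genes measured only 3 reached it on both sides, and the list sums were 314 against 1589 CPM. Fabp7, a radial glial fatty acid binding protein, had 1 UMI against 94, a ratio of 121 with an interval from 21.3 upwards. Fezf2 had none against 129, at least 55.5-fold lower.

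On the higher side, the epithelial list stood at 1740 CPM against 307 in cluster 15, the naive list at 892 against 154 and the germline list at 680 against 70.2. Of the 11 germline genes measured 10 reached the count minimum in cluster 16 alone. Zfp42, a naive stem cell zinc finger protein, had 86 UMIs against 1, though 27 of the 86 came from the deepest day 4 cell. Dppa3, of germ cells and naive stem cells, was at 135 CPM against 3.45, with 38 of 151 UMIs from that cell. Fbxo15, with 40 of its 61 UMIs from it, rested mainly on that cell.

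Taken over all days, cluster 13 exceeded cluster 16 for Hox, imprinted and mesenchymal genes. The days differed, since 193 of the 226 cells of cluster 13 were from day 10 and 115 of the 134 of cluster 16 from day 7. Of 8829 measured genes, 489 (5.54%) were at least 2-fold higher in cluster 16 and 918 (10.4%) at least 2-fold lower. Of 23 measured imprinted genes, 20 of which reached the count minimum on both sides, 10 were lower in cluster 16 and 2 higher (median -0.82), and the list sums were 7186 against 14645 CPM. The Hox sum was 727 against 994 CPM, the mesenchyme and matrix sum 3039 against 8052, and the cardiac and lateral mesoderm sum 509 against 1839. Within the Eed null day 7 library alone, cluster 13 did not exceed cluster 16 in the Hox sum (717 against 793 CPM, with overlapping intervals). Col3a1, a fibrillar collagen, was at 13.4 CPM against 484, or 36.2-fold lower, and Postn, a matrix protein of mesenchyme, at 11.6 against 288, or 24.9-fold lower.

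Higher in cluster 16 than in cluster 13 were the sums of the primitive streak list (628 against 57.4 CPM), the epithelial list (1740 against 528) and the formative list (1378 against 753). Lefty1, an inhibitor of Nodal signalling, was at 113 CPM against 2.64, or 42.9-fold (16.4 to 160), and its relative Lefty2 at 437 against 28.4, or 15.4-fold (11.3 to 21.6). Brachyury (T), the mesoderm and tail bud factor, had 75 UMIs against 3, a ratio of 33.8 (11.1 to 168). Fst, an activin antagonist, was 18.1-fold higher, and the carbonic anhydrases Car2 and Car4 12.0-fold and 8.65-fold.

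The comparison inside the Eed null day 7 library set the 112 cluster 16 cells against the 207 other cells of the same plate, so that library, line and day were shared. Of 7938 measured genes, 247 (3.11%) were at least 2-fold higher in cluster 16 and 407 (5.13%) at least 2-fold lower. Among the lower genes, naive pluripotency and germline genes stood out by their sums, at 717 CPM against 3149 and 665 against 2103. Nr0b1 was at 5.39 CPM against 65.8, or 12.2-fold lower, and Nr5a2, a nuclear receptor of naive cells, had 1 UMI against 92. Khdc3, an oocyte and early embryo gene, was 10.7-fold lower. Sprr2a1, Sprr2a2 and Sprr2a3 were also lower, but their sequences are nearly alike and the copies cannot be counted apart with certainty.

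Higher than in the rest of that library were Car4, at 120 CPM against 21.0, or 5.69-fold (3.77 to 8.83), and Rgs2, at 56.0 against 10.5, or 5.33-fold. Meg3, a maternally expressed imprinted RNA, was at 108 against 32.2, or 3.34-fold (2.34 to 4.85). Spry1, a feedback inhibitor of FGF signalling, was 3.04-fold higher, as was Dkk1. Hoxa9 was at 84.1 CPM against 27.3, or 3.08-fold (2.07 to 4.64), and the Hox sum was 793 CPM against 410. The low side was cluster 10, whose cells in this library held 192 CPM of Hox genes (165 to 222), whereas those of cluster 13 held 717 (604 to 845) and the 22 cells of cluster 20 held 1092 (935 to 1267). For groups 9 to 13 the sums were 464 CPM in cluster 16, 90.6 in cluster 10, 434 in cluster 13 and 745 in cluster 20. The summed levels of the S phase and G2/M lists were similar on both sides, with medians of -0.05 and 0.11 and no gene of either list at least 2-fold apart.

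Those 207 cells were themselves mixed, and the ratios changed with the neighbour chosen. Against the 126 cells of cluster 10 alone, 743 genes (9.31%) were higher and 7.66% lower. There, Hoxa9 had 78 UMIs against 3, a ratio of 26.3 (8.67 to 130), Vim, the mesenchymal intermediate filament, was 11.5-fold higher, and Zfp42 was 11.1-fold lower, at 62.5 CPM against 697. Against the 32 cells of cluster 13 alone, 860 (10.5%) were higher and 998 (12.2%) lower, with Col3a1 36.4-fold lower and T at 73 UMIs against 1. Dkk1 then changed side, with a log2 ratio of -0.76.

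For most genes that separated those 2 neighbours, cluster 16 lay between them. Within the Eed null day 7 library 400 genes were at least 4-fold higher in cluster 13 than in cluster 10 and 216 at least 4-fold lower. The cluster 16 level was between both for 578 of them (93.8%). On a log scale running from 0 at cluster 10 to 1 at cluster 13 its median position was 0.51 (quartiles 0.34 to 0.68). These genes were chosen at extremes, so that other cells fall between them as well: the cells of cluster 20 in the same library did so for 80.7%, with a median position of 0.54, cluster 15 did so for 71.4%, cluster 1 for 63.1% and undifferentiated WT cells for 33.6%. The position of 0.51 is that of the pooled cells. Of the finer groups of cluster 16 described below, taken over all libraries, finer cluster 29 had a median of 0.375 and finer cluster 17 of 0.723.

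A smaller set did not follow that order. At least 2-fold above both neighbours were 68 genes, and at least 2-fold below both were 44. Fst was at 148 CPM in cluster 16, against 16.0 in cluster 10 and 20.2 in cluster 13. Car2 was at 696 against 176 and 126, and Car4 at 120 against 10.7 and 30.3. Cd40, a receptor of the TNF family, had 43 UMIs against 2 and 1. Also above both were Sox1, with 37 UMIs against 4 and 0, and the formative genes Dnmt3b (570 CPM against 277 and 106), Pou3f1 and Fgf5. The cluster 13 side of these values rests on 32 cells and 198164 UMIs.

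**Figure D4:**
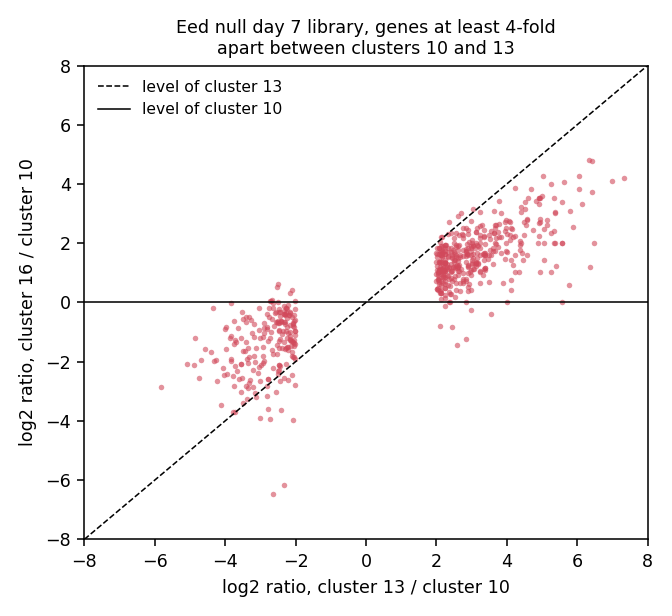
Each point is 1 of the genes at least 4-fold apart between clusters 10 and 13 within the Eed null day 7 library, with the log2 ratio of cluster 13 to cluster 10 on the x axis and that of cluster 16 to cluster 10 on the y axis. For 578 genes the point lies between the solid line (the level of cluster 10) and the dashed line (the level of cluster 13).

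The deposited finer clusterings divided cluster 16 in different ways. At resolution 3, 93 of its cells (median 6297 UMIs) were placed together and 30, with a median of 12443 UMIs, joined a finer cluster of 323 cells, 259 of them from cluster 1. At resolution 5 the largest sets were of 92, 24 and 6 cells, and the sets of 24 and 6 again lay with cells of cluster 1 and had medians of 12740 and 12115 UMIs. In the authors' finest deposited clustering, at resolution 8, 84 of its cells fell into finer cluster 29, 49 into finer cluster 17 and 1 elsewhere. Finer cluster 29 held 98 cells in all, with 9 from cluster 10 and 5 from cluster 1, whereas finer cluster 17 held 125 cells, of which 76 came from cluster 13. Both groups were mainly Eed null day 7 cells (68 of 84 and 44 of 49), and they were sequenced alike, with medians of 6795 and 6809 UMIs.

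The members in finer cluster 29 were epithelial and kept pluripotency transcripts, while those in finer cluster 17 were mesenchymal and rich in posterior Hox RNA. Of 7291 measured genes, 540 (7.41%) were at least 2-fold higher in the former and 546 (7.49%) in the latter. The epithelial list stood at 2299 CPM in finer cluster 29 and 605.1 in finer cluster 17, the mesenchyme list at 2074 and 5076, and the Hox genes at 447 and 1344.

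In finer cluster 29, Cdh1 stood at 859 CPM against 172, and Tdgf1, a Nodal co-receptor of the epiblast, at 424 against 43.6, or 9.73-fold (5.81 to 17.6). Pou5f1 (Oct4), the core pluripotency factor, had 51 UMIs against 1, and Dppa2 had 69 against 1. Dnmt3l, a cofactor of DNA methylation, was 9.41-fold higher and Car4 6.80-fold. H19 stood at 850 CPM against 204, and this side holds the single cell with 439 of its UMIs.

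In finer cluster 17, Hoxa9 stood at 198 CPM against 17.1, or 11.5-fold, and Isl1, a factor of heart and motor neuron precursors, at 102 against 6.59. Snai2, Cdh11 and Col1a2, a repressor of E-cadherin, a mesenchymal cadherin and a collagen, were 10.8-fold, 8.53-fold and 8.22-fold higher. Vim was at 1568 CPM against 295 and Igfbp5 at 1469 against 253. The imprinted gene Mest was at 2379 CPM against 858, and 7 of 20 measured imprinted genes were higher in finer cluster 17 against 3 in finer cluster 29.

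Epithelial and posterior Hox transcripts were nevertheless found in the same cells. Posterior Hox and Cdh1 or Epcam, each with at least 1 UMI, met in 87 of 134 cells (64.9%), and in 33.9% of thinned cells. The thinned share was 33.8% in finer cluster 29 and 34.8% in finer cluster 17, while it was 1.30% in cluster 1, 1.68% in cluster 15, 11.6% in cluster 13 and 0.923% in undifferentiated WT cells. Within the Eed null day 7 library it was 15.0% in cluster 10 and 31.3% in cluster 13.

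Beyond these groups, the summed level of the p53 targets was lower in cluster 16 than in the remaining cells, and some immediate early genes were higher. The sum over the p53 targets was 585 CPM against 1219 in all other cells, and of the 14 measured, 5 of which reached the count minimum in the other cells alone, 7 were lower and 0 higher. Cdkn1a (p21), the cell cycle inhibitor, was at 87.4 CPM against 192, and Ccng1 at 35.7 against 123. Within the Eed null day 7 library the list's median was -0.27, with 1 of 10 measured genes lower and 0 higher. Cdkn2a, the PRC2-repressed tumour suppressor locus, stood at 20.5 CPM against 4.33.

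Of 12 measured immediate early genes 4 were higher than in all other cells and 0 lower, including Egr1 at 182 CPM against 60.3 and Jun at 168 against 49.7. Over all measured genes 6.68% were higher and 4.62% lower. A list member scarce in the other cells passes the count minimum only through cluster 16, so the list counts given here describe single genes, not whole lists. Immediate early genes also respond to cell handling, and the part of the dissociation in these values was not tested. In the BMP and TGF-beta list, 5 of 13 measured genes were higher and 1 lower (median 0.88), with Id3, a direct BMP target, at 676 CPM against 204. Dusp6 and Spry1, targets of FGF signalling, stood at 222 against 100 and 152 against 45.3. Not all of these genes were highest in cluster 16 within the Eed null day 7 library. There, the log2 ratio to cluster 10 was 1.78 in cluster 16 and 2.48 in cluster 13 for Jun. For Dusp6 these ratios were 1.84 and 2.01. Junb went the other way, at 176 CPM in cluster 16 against 85.8 in cluster 13. Of 21 measured imprinted genes 6 were higher and 0 lower, with Mest at 1321 CPM against 295, Peg3 at 1521 against 550 and Dlk1 at 622 against 329.

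The 11 cells of other genotypes did not match the Eed null members throughout. Together they held 85249 UMIs. Their posterior Hox sum was 223 CPM (134 to 348), against 464 (422 to 510) in the Eed null day 7 members, and their Krt8 and Vim levels were 633 and 892 CPM against 220 and 735. Cdh1 was at 117 CPM in them against 652. The 9 Eed null day 10 cells, with 48477 UMIs, had 186 CPM of posterior Hox (84.9 to 352), and their share of the cluster is too small to set them apart gene by gene.

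The bulk EBs give levels of the same genes in samples that the clustering did not use, although in whole EBs fewer cells of a type and less RNA per cell cannot be told apart. The values there are CPM of reads in whole EBs. Eed was not lower in the libraries labelled Eed null: over days 0, 2, 4 and 7 it was at 131, 212, 113 and 65 CPM, against 110, 233, 78.6 and 53.1 in J1 (log2 difference 0.23, SE 0.13, limma adjusted p = 0.278), and it was higher on 3 of 4 days. The RNA level therefore does not check the label, and these samples are called by it below. With the day as a block, limma called 1154 of 14589 genes higher (7.91%) and 437 lower (3.0%) in the libraries labelled Eed null at an adjusted p under 0.05, with a median log2 difference of 0.12 over all genes. This split depended on the scale, since 72.5% of the calls were higher on this scale and 55.1% on the deposited size-factor scale, while edgeR on the recovered reads called 490 genes higher and 499 lower. Without day 2 only 5 and 4 genes were called.

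Hox genes were higher in the bulk libraries labelled Eed null as a family. Of the 39 Hox genes listed 27 were tested, and 17 of them were called higher and 0 lower, with a median log2 difference of 2.29. All 27 had a difference above 0. Among groups 9 to 13, 11 of 13 were called. The number of Hox genes called was 15 of 22 without day 7, 6 of 26 without day 4, 4 of 27 without day 0 and 0 of 27 without day 2, and it was 1 without the day as a block and 6 of 26 by edgeR.

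Hoxd13 was at 9.33, 9.32, 13.1 and 20.7 CPM on days 0, 2, 4 and 7 in the libraries labelled Eed null and at 0.183, 0.526, 0.822 and 0.728 in J1. The 2 lines did not overlap, and the log2 difference was 3.64 (SE 0.29, limma adjusted p = 0.0071). It was called in 10 of 11 alternative settings. Hoxa9, the leading gene of cluster 16, was at 7.37, 4.70, 7.81 and 8.89 CPM against 0, 0, 0 and 3.62, a log2 difference of 3.15 (SE 0.53, limma adjusted p = 0.02), and it was called in 6 of 11 settings. Hoxc9 (log2 difference 2.16, limma adjusted p = 0.0283) and Hoxa10 (3.03, limma adjusted p = 0.0254) were each called in 5 of 11. On day 7 Hoxc9 was at 9.38 against 4.67 CPM and Hoxa10 at 12.1 against 6.04.

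Among the leading genes described against all other cells, the Hox genes Hoxa9, Hoxc9 and Hoxa10 were called higher. Gata2 was higher on 4 of 4 days with a log2 difference of 1.90 (SE 0.55, limma adjusted p = 0.0734), which did not pass, and Magel2 (0.79, limma adjusted p = 0.124) did not either. Bulk values of the other leading genes of that comparison are not given here.

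Anxa1 was higher by 1.96 on the log2 scale (SE 0.24, limma adjusted p = 0.0137, 8 of 11 settings). Igfbp5 was higher by 1.84 (SE 0.45, limma adjusted p = 0.0478) but was called in 0 of 11 alternative settings. Car4, Mest and Peg3, with log2 differences of 0.25, -0.33 and -0.04, were not called.

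Cdkn2a was at 39.3, 21.8, 31.7 and 62.7 CPM against 3.67, 4.63, 1.45 and 4.24 in J1, a log2 difference of 3.29 (SE 0.34, limma adjusted p = 0.0116) that was called in all 11 alternative settings. The p53 targets were lower in bulk as well: 11 of 14 tested were called lower and 1 higher, with a median of -1.20; the higher gene was Pmaip1, an inducer of apoptosis (log2 difference 1.01, limma adjusted p = 0.0279). Cdkn1a fell by 2.42 on the log2 scale (SE 0.30, limma adjusted p = 0.0137, lower on 4 of 4 days). Germline genes were called higher in 8 of 20 and lower in 0, and mesenchyme genes in 0 of 22 and 1 of 22, the one being Vim, at -1.37 (limma adjusted p = 0.0403). Neither the p53 nor the germline list kept all its calls in every setting. Over all genes, only 5 were called higher and 4 lower without day 2, and 7 and 7 without the day as a block.

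**Figure D5:**
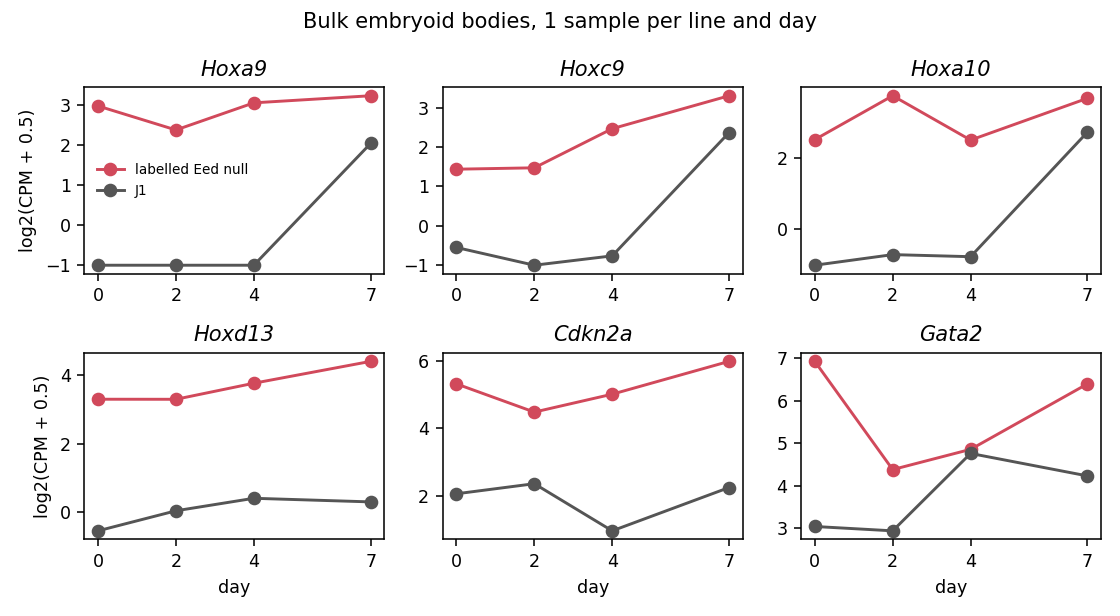
Levels of 6 genes in bulk EBs as log2(CPM + 0.5) on days 0, 2, 4 and 7, with 1 sample per line and day, for the libraries labelled Eed null and for J1. Hoxd13 and Cdkn2a are apart on every day (log2 differences 3.64 and 3.29), whereas J1 approaches the libraries labelled Eed null for Hoxa9, Hoxc9 and Hoxa10 on day 7 and the lines lie close for Gata2 on day 4.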

How the data were processed

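Cells of EBs were sorted 1 per well and sequenced by SORT-seq. Per the study's methods, the authors aligned reads to GRCm38/mm10 with Bowtie2, counted them with HTSeq, removed wells with under 500 genes using Scater, and clustered the cells in Seurat; the deposited single-cell values are raw UMI counts of 15830 genes, without mitochondrial transcripts. No doublet caller was run, since 1 cell was sorted per well. For the bulk EBs, the authors used Salmon and DESeq2, and the deposited values are a normalised signal, read counts divided by a size factor per library; their scale was converted to CPM, and all nonzero values of the columns used came back as whole reads (within 0.02). The depth recovered was 3965840 to 6702637 reads per column.

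UMI counts were summed over groups of cells, and a gene was described as higher or lower at a 2-fold ratio with at least 20 UMIs, a side at 0 being set to 3 counts. Genes named are the 10 with the largest ratio in each direction at 50 UMIs or more, and members of the fixed lists; 1 gene that the rule names is not reported here. Only once their values had been seen were genes or cells singled out for resting on 1 cell, or for lying above or below both clusters 10 and 13. The bulk samples labelled Eed null and J1 were compared by limma 3.58.1 (trend, day as block) on log2(CPM + 0.5) for genes with at least 1 CPM in 4 of 8 samples, since the values are not counts; p-values were adjusted by Benjamini-Hochberg, and edgeR 4.0.16 on the recovered reads was added after seeing the data. Each sample is the only one of its line and day, so the p-values measure spread over days. Bulk columns marked r1 and r2 of 1 line and day belong to 1 sample and were averaged. The day 0 columns of the bulk table carry the word mono where the labels say EB. The code was tested on simulated data. Scripts ran in Python 3.11.15 (numpy 2.4.6, pandas 2.3.3, scipy 1.17.1) and R 4.3.3. The members and gene lists were chosen with earlier results of these data known. The directed differentiation samples were not used here.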

Additional observations from a re-analysis of the deposited data

How the results depend on the processing

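No paired analysis was possible because, by replicate number, there is nothing to pair: the labels give none, with 1 library per genotype and day, and the r1 and r2 columns of the bulk table belong to 1 sample and were averaged. The bulk lines were paired by day instead. Shares of the measured genes that were at least 2-fold higher and lower in cluster 16 are given for the other side in the order all other cells, cluster 1, cluster 15, cluster 13 and, where it applies, the other Eed null day 7 cells. With each cell thinned to 2500 UMIs they were 6.46% and 5.19%, 8.56% and 4.28%, 8.30% and 7.77%, 6.71% and 9.86%, and 3.15% and 4.74%, and since fewer genes were measured the counts were 270 and 217, 354 and 177, 359 and 336, 294 and 432, and 119 and 179. At a minimum of 50 UMIs the shares were 4.98% and 3.79%, 7.02% and 2.71%, 6.35% and 6.40%, 4.47% and 8.51%, and 1.77% and 3.22%, and the counts 263 and 200, 366 and 141, 350 and 353, 250 and 476, and 83 and 151. At 4-fold the shares were 0.842% and 1.19%, 3.14% and 0.633%, 2.88% and 2.09%, 0.895% and 2.58%, and 0.239% and 1.23%, and the counts 71 and 100, 263 and 53, 254 and 184, 79 and 228, and 19 and 98. These settings count fewer UMIs, fewer genes or larger ratios by construction. Leaving out 1 library at a time gave 6.13% to 7.48% higher and 4.46% to 5.19% lower against all other cells, 8.90% to 10.1% and 3.56% to 4.34% against cluster 1, 7.95% to 10.2% and 6.18% to 10.2% against cluster 15, and 5.33% to 7.29% and 9.69% to 10.8% against cluster 13. The counts were lowest without Eed null day 7, which leaves 22 members: 169 and 123, 246 and 120, 251 and 176, and 210 and 289.

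Among alternatives added after seeing the data, the 84 members of finer cluster 29 gave 356 genes (5.00%) higher than all other cells. Against cluster 10 alone the Eed null day 7 members gave 9.31% of genes higher and 7.66% lower, and against cluster 13 alone 10.5% and 12.2%. Without the cell with most of its UMIs, H19 kept a log2 ratio of 1.78 against all other cells and 5.03 against cluster 1, and Gata2 kept 2.32 against all other cells.

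The sign of a ratio turned for 9 named values, and except for Hbb-bh0 the cause was not tested. Hoxa10 turned without Eed null day 7 (-0.09, against up to 3.05 without another library). With only Eed null cells on the other side, Hbb-bh1 (0.17), Hba-x (0.75), Olig2 (2.89), Hbb-bh0 (2.47) and Eed (0.77) turned. Hbb-bh0 had 0 UMIs in cluster 16, so its value was set by the floor of 3 counts and shows no higher level. Cluster 16 held 7 UMIs of Hbb-bh1, 17 of Hba-x and 2 of Olig2. Of its 12 Eed UMIs, 11 lay in the 11 members of other genotypes and 1 in the 123 Eed null members. Dkk1 (-0.76), Sprr2a3 (0.095) and Fbxo15 (0.021) turned against cluster 13 alone. Of the other values of single genes, 6079 were counted as the same and 180 as moved. A single-cell ratio counted as the same when it lay inside the interval of the main ratio, and as moved when it lay outside. No threshold was used for that. In bulk, 71 values passed the threshold for a call newly and 460 no longer passed it.

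In bulk, genes called higher and lower were 473 and 209 with no filter other than a value above 0, 7 and 7 without the day as a block, and 490 and 499 by edgeR. On the deposited size-factor scale 755 genes were called higher, which was 55.1% of the calls. Leaving out 1 day gave 5 to 399 higher and 4 to 125 lower, the lowest without day 2 (5 and 4). With 1 sample per line and day the calls rest on 4 pairs, and depth limits single-cell statements on genes under about 20 UMIs. Taking all wells with at least 500 genes as the denominator, cluster 16 made up 32.7% of the Eed null day 7 library.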
